A study of Rattus norvegicus with 18 samples.

Results

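The comparison set the middle of the subjective day, circadian time (CT) 6, against its start, CT 0, in the suprachiasmatic nucleus (SCN), the hypothalamic seat of the main circadian clock, in the rat. It was made of the arrays titled 6 and 30 h (CT 6) and of those titled 0 and 24 h (CT 0), 9 of the 18 arrays of the series and 4 of its 8 RNA pools. The animals were adult male Long-Evans rats from a cycle of 12 h of light and 12 h of dark. They entered constant darkness at CT 12 and were killed at 6 h intervals, beginning 12 h later at CT 0. No label names a mutation or a drug, and all groups were in constant darkness, so CT 6 and CT 0 of a cycle differ in phase and in 6 h more of darkness, which cannot be told apart. The RNA of the 5 rats of a time point was extracted singly and then pooled, so the spread between animals is not in these values and the pool is the replicate. Pools were read on the Affymetrix U34A array, where a gene has 1 or more probe sets (groups of short probes that together give 1 intensity). Each pool was read in a first run and in a technical repeat, and at 24 h the first run had a pair of arrays, a and b, taken here to read the same pool. CT 0 thus had 2 pools on 5 arrays and CT 6 had 2 pools on 4 arrays, with 6 h paired with 0 h and 30 h with 24 h. All 8740 probe sets other than controls, of 8799 on the array, were compared. The cell line of the series' title was not analysed here.

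In the SCN, the transcription factors BMAL1 and CLOCK bind E-box sequences and switch on the Per and Cry genes, whose proteins return to the nucleus and block them. E-boxes also drive the nuclear receptors NR1D1 and NR1D2, which repress Bmal1 through elements that they share with ROR receptors, and the PAR bZIP factors DBP, TEF and HLF, which act on D-boxes in output genes. The early subjective day is known as the time when E-box transcription gets under way and SCN neurons fire faster than at night.

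No probe set passed the test between the start and the middle of the subjective day, and most measured differences were small. Of 8673 probe sets tested, 0 (0%) had an adjusted p under 0.05 in limma's moderated test with Benjamini-Hochberg adjustment. The smallest adjusted p was 1. Every difference below is thus a description. It is given as CT 6 minus CT 0 on the log2 scale with the standard error (SE) of the fit, with 2 pools a side. Without adjustment, 203 probe sets (2.34%) were higher at CT 6 and 147 (1.69%) lower at a p under 0.05, 350 in all, fewer than the 433.65 that this threshold passes when nothing differs. Leaving out the 0 h pool took the counts to 94 and 60, and leaving out the 6 h pool took them to 330 and 284. The CT 6 pools both exceeded the CT 0 pools for 1577 probe sets (18.2%) and both lay under them for 1352 (15.6%). For a single probe set, an exact permutation test of 2 pools against 2 cannot go below a two-sided p of 0.333. The median difference was 0.02. Above the median level (a geometric mean intensity of 121), 94.2% of differences lay within 0.5, the median SE was 0.22, and 16 probe sets differed by more than 1, of which 4 did so in both cycles. Below that level the median SE was 0.42.

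The differences of the first cycle were mostly not those of the second. Among the 4370 probe sets above the median level, the difference of 6 from 0 h had the same sign as that of 30 from 24 h for 52.1%. The correlation of the cycles across these probe sets, which share arrays and are not independent, was 0.05. For the step from CT 12 to CT 18 the share was 57.2% and the correlation 0.20, and for the step from CT 6 to CT 12 they were 48.3% and -0.05. Within the CT 0 to CT 6 step, the first run and the repeat of the same pools also had little in common, with a correlation of 0.05 on the first day and 0.07 on the second. Arrays a and b of the 24 h pool differed by a median of 0.43, and a pool's first run differed from its repeat by 0.44 to 0.46. The median size of the difference between the CT 6 and CT 0 pools was 0.21 on the first day and 0.22 on the second, beside 0.18 between the CT 0 pools and 0.22 between the CT 6 pools. All 4 pairs of arrays (both cycles, each in both runs) were higher at CT 6 for 7.78% of these probe sets and lower for 7.57%.

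**Figure D1:**
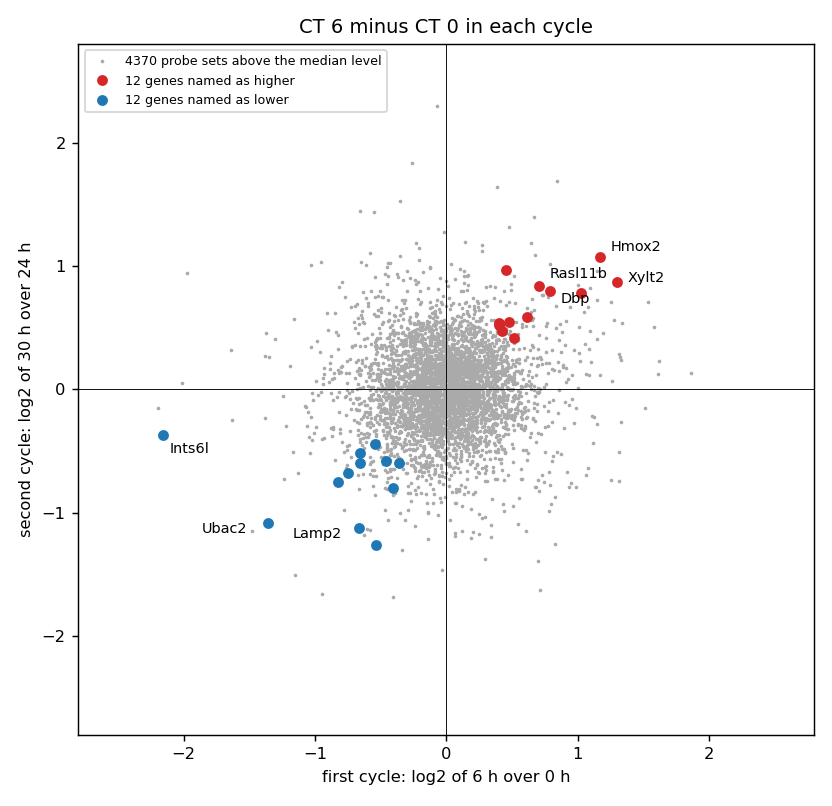
Log2 difference of each probe set above the median level in the second cycle (30 h over 24 h, vertical axis) against that in the first (6 h over 0 h, horizontal axis). Grey points are the 4370 probe sets, which form a round cloud with a correlation of 0.05; red and blue points are the 12 genes named as higher and the 12 named as lower, picked for agreeing in both cycles.

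The arrays of both phases had trimmed mean intensities (extremes left out) of 499 to 500. Their level had thus been made alike by scaling before deposit, and its likeness is no check of quality. Their median intensity was 136.5 to 152.3 in the first run and 107.9 to 123.1 in the repeat. The first-run array of 0 h had the lowest ratio of 3' to 5' GAPDH probes, 8.55, and the highest of actin, 17.0, where the other 8 arrays had 14.3 to 32.5 and 2.86 to 6.67. The tissue carried SCN peptides: somatostatin (Sst) was at 4895 to 6410 and arginine vasopressin (Avp) at 1226 to 1894 over the 4 pools, while vasoactive intestinal peptide (Vip) was dim, at 37.5 to 78.6. Oxytocin (Oxt), made by neurons around the SCN, was at 2463 to 3470. In such tissue, fewer cells of a type and less RNA per cell cannot be told apart.

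Rasl11b and Dbp led the genes that were higher at CT 6. Genes were named by a rule: 1 symbol, a level above the median, the same direction in both cycles and both runs, and the smallest p, 12 in each direction. Agreement of cycles and runs is therefore part of the choice. Rasl11b encodes a small GTPase of the RAS family. Its pools were at 897 (0 h) and 851 (24 h) at CT 0 and at 1463 (6 h) and 1526 (30 h) at CT 6. The CT 6 pools both exceeded the CT 0 pools, and so did the single arrays, at 1217 to 1760 against 756 to 1198. The difference was 0.77 ± 0.14 (SE), a fold of 1.71. Rasl11b then stood at 1171 and 1096 at CT 12 and at 523 and 490 at CT 18. A second, dim probe set of Rasl11b was higher by 1.43 ± 0.40.

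Dbp encodes the D-box factor of the clock's output. Its pools were at 479 and 516 at CT 0 and at 828 and 899 at CT 6, and single arrays overlapped (309 to 914 against 705 to 972). The difference was 0.79 ± 0.15 (SE), a fold of 1.73, nearly equal in both cycles. It was 0.39 in the first run and 1.20 in the repeat, so its size depended on the run. CT 6 was not the highest phase of Dbp, which stood at 1243 and 1175 at CT 12. A second probe set of Dbp was higher by 0.32 ± 0.25.

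The same 6 h step at the start of the subjective night, CT 12 to CT 18, shares no pool with this one. The difference between the steps had an adjusted p under 0.05 for 0 of 8673 probe sets (0%), and an unadjusted p under 0.05 for 540 (6.23%). Rasl11b came first. It was higher by 0.77 over the day step and its level differed by -1.16 over the night step. The difference between the steps was 1.94 ± 0.19 (SE), with an adjusted p of 0.0776 in limma. For Dbp it was 1.37 ± 0.21 (SE), with an adjusted p of 0.425.

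The promoters of both leading genes are shown because E-boxes and D-boxes are the sequences through which the clock is known to act, with Bmal1 and Per2 beside them as clock genes whose windows hold a searched motif. Each is 300 bases from RefSeq on the GRCr8 build, from 250 bases before to 50 after the start of the gene, read 5' to 3' on the gene's strand. Capitals mark AGGTCA, the core of nuclear receptor sites, in Bmal1 and the D-box TTATGTAA, on either strand, in Per2.
Rasl11b, chr14:34373201-34373500, minus strand: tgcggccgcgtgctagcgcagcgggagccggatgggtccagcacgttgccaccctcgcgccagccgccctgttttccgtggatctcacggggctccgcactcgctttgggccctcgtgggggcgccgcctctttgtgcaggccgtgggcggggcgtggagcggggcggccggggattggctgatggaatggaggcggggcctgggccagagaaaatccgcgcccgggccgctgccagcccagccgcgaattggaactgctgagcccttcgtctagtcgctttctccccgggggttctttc
Dbp, chr1:105312006-105312305, plus strand: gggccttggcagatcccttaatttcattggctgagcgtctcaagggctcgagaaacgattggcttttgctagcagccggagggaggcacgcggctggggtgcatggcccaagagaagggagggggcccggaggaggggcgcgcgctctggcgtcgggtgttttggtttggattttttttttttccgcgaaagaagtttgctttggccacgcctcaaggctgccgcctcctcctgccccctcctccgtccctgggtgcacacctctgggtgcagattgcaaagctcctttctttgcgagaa
Bmal1, chr1:176766078-176766377, plus strand: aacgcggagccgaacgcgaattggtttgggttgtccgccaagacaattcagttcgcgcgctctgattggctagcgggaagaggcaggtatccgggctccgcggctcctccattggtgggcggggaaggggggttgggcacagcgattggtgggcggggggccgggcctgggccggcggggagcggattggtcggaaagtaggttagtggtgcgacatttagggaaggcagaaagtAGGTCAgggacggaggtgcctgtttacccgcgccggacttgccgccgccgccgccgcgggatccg
Per2, chr9:99496944-99497243, minus strand: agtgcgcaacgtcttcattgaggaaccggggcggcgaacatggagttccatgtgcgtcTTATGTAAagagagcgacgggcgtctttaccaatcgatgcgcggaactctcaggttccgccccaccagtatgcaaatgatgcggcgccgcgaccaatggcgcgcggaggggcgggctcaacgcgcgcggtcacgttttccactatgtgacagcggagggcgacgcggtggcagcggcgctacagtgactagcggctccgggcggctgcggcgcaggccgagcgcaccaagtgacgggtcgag
The windows of Rasl11b and Dbp held 0 matches to the motifs searched on both strands, CACGTG (E-box), TGACGTCA (cAMP response element), TTATGTAA or TTACGTAA (D-box) and AGGTCA. A promoter was matched for 10 of the 12 genes named as higher, for all 12 named as lower and for 10 of the 12 clock genes. An E-box lay in 0 of the 10, 0 of the 12 and 4 of the 10 (Bhlhe40, Bhlhe41, Nr1d1 and Tef), beside 6.42% of all 33469 promoters. A D-box lay in Per2 and in Ints6l, beside 1.01% of all, and a cAMP response element in none of these genes, beside 1.83%. AGGTCA lay in 2 genes of each set, beside 16.2%. A gene with several starts counts if any of its windows holds the motif, and Dbp stands in both the higher and the clock set. A match describes these letters only.

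**Figure D2:**
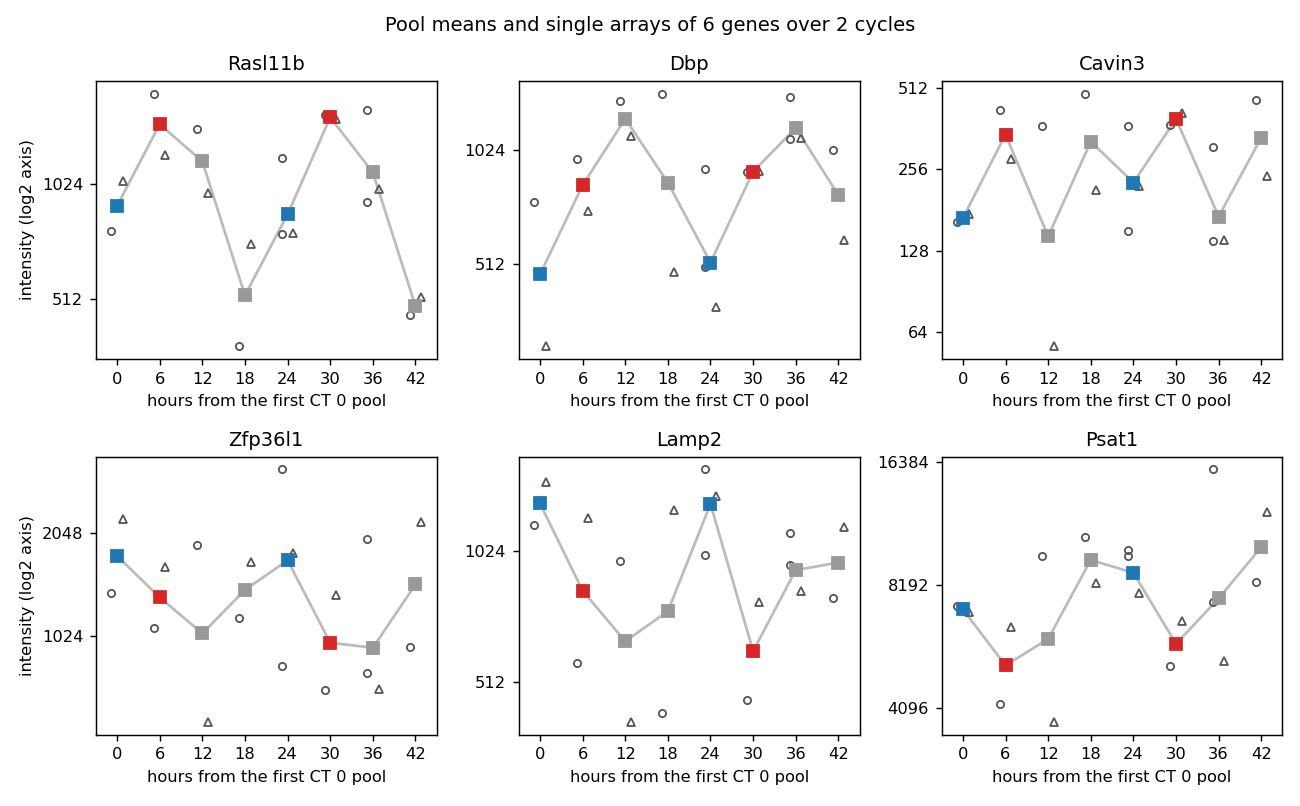
Intensity (log2 axis) of 6 genes against hours from the first CT 0 pool. Squares are pool means, blue at CT 0, red at CT 6 and grey at CT 12 and CT 18; circles are single arrays of the first run and triangles those of the technical repeat. The red squares of Rasl11b, at 1463 and 1526, lie above its blue ones, at 897 and 851, and those of Psat1, at 5199 and 5872, lie below its blue ones, at 7134 and 8770.

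From here on, levels are given for the 0 and 24 h pools (CT 0) and then for the 6 and 30 h pools (CT 6). For the other 10 genes named as higher, the differences ran from 0.45 (Uqcc4) to 1.12 (Hmox2). Cavin3, a coat protein of caveolae, was at 169 and 228 at CT 0 and at 344 and 393 at CT 6. Both CT 6 pools were higher, by 0.90 ± 0.22 (SE), and its dim second probe set was higher by 0.84 ± 0.35. Cavin3 stood at 145 and 171 at CT 12 and at 324 and 335 at CT 18. Hmox2, the constitutive heme oxygenase, was at 99.9 and 79.7 and then at 225 and 167, a difference of 1.12 ± 0.31 (SE). Its second, brighter probe set differed by only 0.02 ± 0.17. Xylt2, a xylosyltransferase that starts glycosaminoglycan chains, was at 125 and 126 and then at 308 and 231. That difference, 1.08 ± 0.27 (SE), was 0.24 in the first run and 1.92 in the repeat. Lta4h, the enzyme that makes leukotriene B4, was at 1695 and 1968 and then at 2598 and 2962. Both CT 6 pools of Lta4h were higher, by 0.60 ± 0.18 (SE), yet its second probe set differed by -0.03 ± 0.15.

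The remaining 6 of these genes had differences of 0.45 to 0.71. Matrix Gla protein (Mgp), an inhibitor of calcification in vessel walls, was at 749 and 682 and then at 1039 and 995 (0.51 ± 0.15). Coronin 1A (Coro1a), an actin regulator of immune cells, was at 267 and 233 and then at 365 and 454 (0.71 ± 0.22), and RT1-DOa, a chain of a class II histocompatibility molecule, was at 612 and 650 and then at 875 and 866 (0.47 ± 0.14). The ribosomal protein gene Rpl35a was at 3339 and 2809 and then at 4406 and 4036 (0.46 ± 0.14). The ATP synthase subunit gene Atp5po was at 828 and 658 and then at 1094 and 957 (0.47 ± 0.15), and Uqcc4, an assembly factor of respiratory complex III, was at 1441 and 1443 and then at 1935 and 2007 (0.45 ± 0.14). A second, similarly bright probe set of Uqcc4 differed by 0.14 ± 0.16, with 0.32 and -0.05 on the 2 days. Every CT 6 array lay above every CT 0 array for Mgp, Lta4h, RT1-DOa and Uqcc4, as for Rasl11b, and arrays overlapped for the other 7 of the 12. For the overlap of arrays, here and below, the share over all probe sets was not counted. Genes picked for a small p and for agreement of cycles and runs would overlap less.

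The 12 genes named as lower at CT 6 had differences from -0.48 (Chordc1) to -1.27 (Ints6l). Lamp2, a lysosomal membrane protein that takes part in autophagy, was at 1319 and 1315 at CT 0 and at 830 and 602 at CT 6. Its CT 0 pools were alike and both CT 6 pools lower, by -0.90 ± 0.24 (SE). Its other 2 probe sets differed by -0.28 ± 0.14 and -0.30 ± 0.16. Zfp36l1, an RNA-binding protein that speeds the decay of AU-rich messages, was at 1760 and 1708 and then at 1330 and 980, a difference of -0.60 ± 0.16 (SE). Its second probe set differed by -0.30 ± 0.14. Psat1, a transaminase of serine synthesis, was at 7134 and 8770 and then at 5199 and 5872. Every CT 6 array of Psat1, at 4175 to 6672, was below every CT 0 array, at 7011 to 9967. Its difference was -0.52 ± 0.16 (SE), while its other 3 probe sets differed by 0.54, -0.17 and -1.30. Psat1 stood at 9428 and 10141 at CT 18. Chordc1, a co-chaperone of HSP90, was at 2923 and 3057 and then at 2280 and 2021, a difference of -0.48 ± 0.14 (SE), and stood at 2997 and 2978 at CT 18.

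Mitochondrial peroxiredoxin 3 (Prdx3), an enzyme that removes peroxides, was at 1918 and 1910 and then at 1317 and 1402. Both CT 6 pools of Prdx3 were lower, by -0.49 ± 0.13 (SE), with -0.34 ± 0.24 in a second probe set. Gclm, the modifier subunit of the enzyme that limits glutathione synthesis, was at 330 and 330 and then at 228 and 138 (-0.90 ± 0.26), while its dimmer probe sets differed by 0.49 ± 0.38 and -0.11 ± 0.39. Dync1i2, an intermediate chain of the dynein motor, was at 1080 and 1001 and then at 686 and 699 (-0.59 ± 0.16). Rabgap1l, of a family that turns off RAB GTPases, was at 2300 and 2023 and then at 1368 and 1262 (-0.72 ± 0.21). The nuclear pore gene Nup58 was at 544 and 554 and then at 345 and 367 (-0.62 ± 0.18). Its other probe sets were dimmer and disagreed: 2 lay at or near the floor, and 3 differed by 1.03 ± 0.59, -0.04 ± 0.36 and -1.22 ± 0.52. The protease inhibitor gene Serpina1 was at 263 and 353 and then at 148 and 210 (-0.79 ± 0.22), with no overlap of arrays. Its dim other probe sets lay at the floor or differed by -0.36 ± 0.32. In Ubac2 and Ints6l single pairs of arrays differed widely. Ubac2, which takes part in protein turnover at the endoplasmic reticulum, differed by -1.22 ± 0.32 (SE). This was made of -2.86 in the first run and 0.15 in the repeat on the first day, and of 0.38 and -2.55 on the second. Ints6l, a relative of an Integrator subunit, differed by -1.27 ± 0.38 (SE), of which the first-run pair of the first day gave -3.90 and the other 3 pairs -0.27 to -0.48. Over the 24 named genes, all 4 pairs of arrays had 1 direction for 11 of the 12 higher and 10 of the 12 lower genes. The exceptions were Atp5po (-0.01 in the first-run pair of the first day), Ubac2 and Chordc1 (0.14 in the repeat of the first day). The rule that named these genes asked for 1 direction in both cycles and both runs, so these counts largely follow from it. Over all probe sets above the median level, the shares were 7.78% higher and 7.57% lower.

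**Figure D3:**
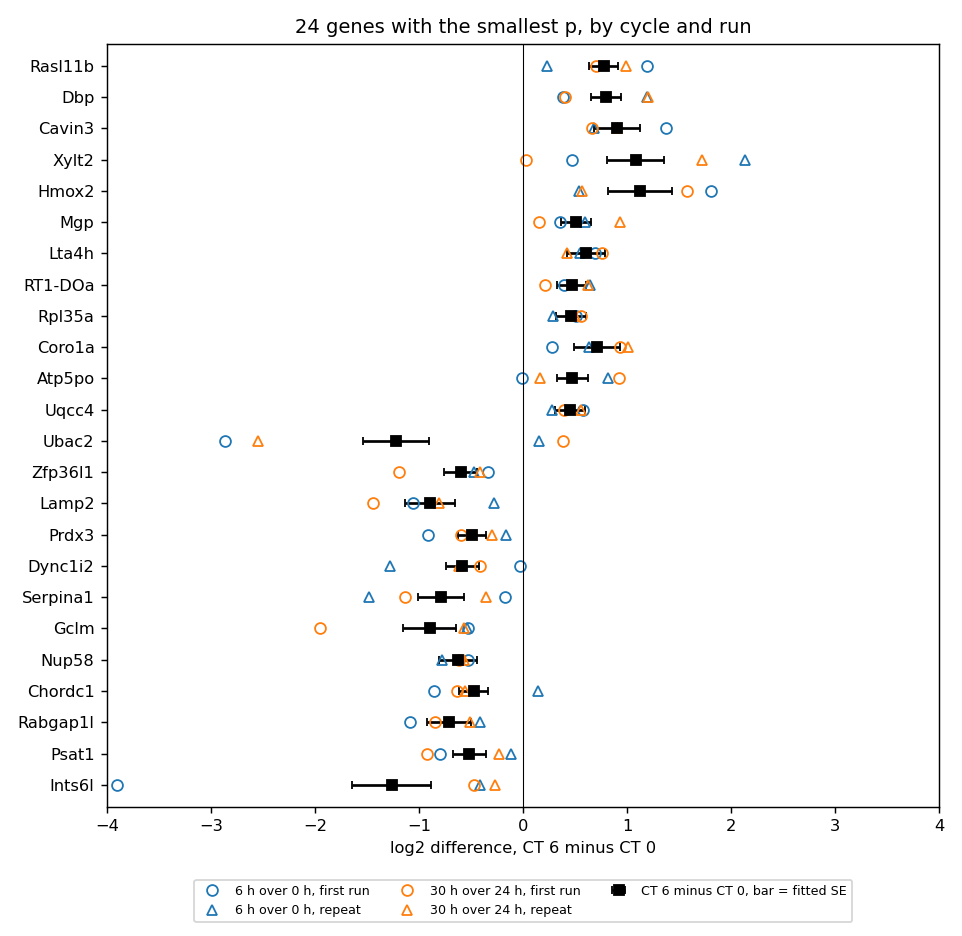
Log2 difference of CT 6 minus CT 0 for the 12 genes named as higher and the 12 named as lower. Black squares with bars are the fitted difference and its SE; open circles (first run) and triangles (technical repeat) are single pairs of arrays, blue for 6 h over 0 h and orange for 30 h over 24 h. The pairs of Rpl35a lie between 0.29 and 0.55, and those of Ubac2 between -2.86 and 0.38.

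Other probe sets of a gene read the same RNA again, but on the same arrays, so their readings are not independent. Genes with a higher probe set at an unadjusted p under 0.05 had 60 further probe sets above the median level that did not pass themselves. Of these, 38 were higher too, with a median difference of 0.08. Genes with a lower one had 62 such further probe sets that did not pass as lower, of which 43 were lower, with a median of -0.13. Those that passed in the same direction, or were dimmer, are left out of these counts. Of all probe sets above the median level of genes with several, 51.0% were higher. Of the later phases, CT 12 lay above the midpoint of CT 0 and CT 6 for 55.2% of the 203 higher probe sets. Among the 147 lower ones the share was 46.9%, and among all tested 56.5%. For CT 18 these shares were 52.7%, 52.4% and 55.4%.

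Of the clock genes, each read by its brightest probe set, Dbp had an unadjusted p under 0.05 and the other 11 did not. The lists held 24 clock genes, of which 12 were matched to a probe set: 1 of 4 activators, 5 of 11 repressors, 3 of 5 nuclear receptors and 3 of 4 output factors. Over all 4713 genes read by 1 probe set each, 111 (2.36%) were higher and 78 (1.65%) lower at that p. Whatever their p, 2491 of these genes were higher and 2193 lower, the baseline for the list counts below. Bmal1, the activator, was at 217 and 287 at CT 0 and at 234 and 168 at CT 6, so the pools overlapped. The days gave 0.11 and -0.78, and the difference was -0.33 ± 0.32 (SE). Bmal1 stood at 104 and 162 at CT 12. A second, dimmer probe set of Bmal1 went the other way on each day, with -0.52 on the first and 0.21 on the second. Its difference was -0.16 ± 0.52 (SE). Per2, the light-inducible repressor, was at 276 and 283 and then at 236 and 229, lower in both cycles, with a difference of -0.26 ± 0.33 (SE) that its SE exceeds. Single arrays of Per2 overlapped widely, at 124 to 468 at CT 0 and 147 to 359 at CT 6.

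The other repressors showed no common direction. Bhlhe40 (Dec1) differed by -0.28 ± 0.32, with 0.10 on the first day and -0.67 on the second. Bhlhe41 (Dec2), at 4160 to 4807, differed by -0.10 ± 0.21, and Csnk1d, a kinase of PER proteins, by 0.13 ± 0.21. Timeless lay near the floor of 12.1, the value to which lower intensities were set, at 12.8 to 18.1. Among the nuclear receptors, Nr1d2 was at 810 and 808 and then at 887 and 882, a difference of 0.13 ± 0.19 (SE). Nr1d1 was at 167 and 193 and then at 289 and 113, with 0.79 on the first day and -0.77 on the second. The low value at 30 h rests on the first-run array, at 45.2, where the repeat of that pool read 282.9. A second probe set of Nr1d1 was at 106 and 112 and then at 226 and 130, higher by 0.66 ± 0.35 (SE). Rorb was near the floor, at 13.3 to 25.3. Of the factors related to Dbp, Tef differed by 0.09 ± 0.24 and Hlf by 0.14 ± 0.38, each higher on the first day and lower on the second. The other probe sets of Hlf were dim: one, at the floor at CT 0, was at 12.1 and 12.1 and then at 15.4 and 20.2, higher by 0.54 ± 0.23 (SE) with an unadjusted p under 0.05 in limma, and one differed by 0.12 ± 0.51.

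**Figure D4:**
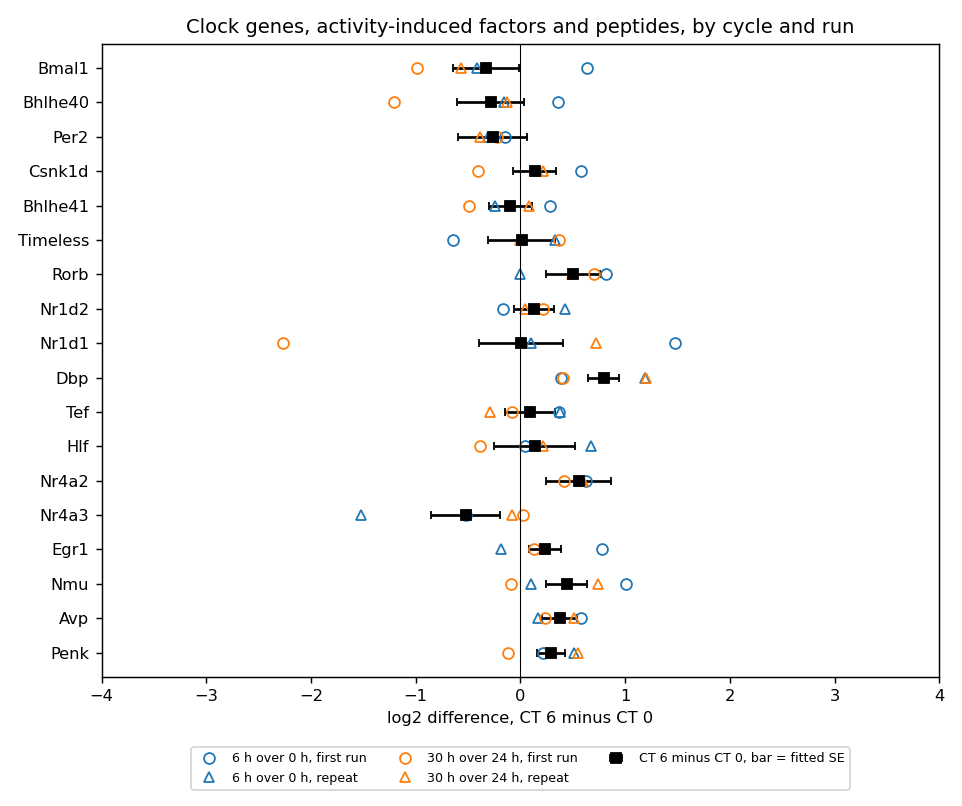
Log2 difference of CT 6 minus CT 0 for the 12 matched clock genes, 3 activity-induced transcription factors and 3 SCN peptides. Black squares with bars are the fitted difference and its SE, circles the first run, triangles the repeat, blue the first cycle and orange the second. The single pairs of Nr1d1 span -2.27 to 1.48, and those of Dbp lie between 0.38 and 1.20.

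Peptides of the SCN were split. Of 16 matched, 9 were higher and 7 lower, with 4 higher and 7 lower on both days, beside 27.3% and 22.5% of all genes. The CT 6 pools both exceeded the CT 0 pools for 3 and lay under them for 7, beside 18.8% and 15.8% of all genes, and the median was 0.03. Avp, a peptide of the SCN shell and a known target of the clock, was at 1226 and 1461 at CT 0 and at 1590 and 1894 at CT 6. Its difference, 0.37 ± 0.17 (SE), was alike in both cycles, at 0.38 and 0.37. A second probe set of Avp differed by 0.40 ± 0.20, and a further dim one by -0.20 ± 0.49. Neuromedin U (Nmu) was at 418 and 386 and then at 613 and 483, a difference of 0.44 ± 0.20 (SE). The opioid precursor Penk was at 1150 and 1524 and then at 1482 and 1774, higher in each cycle but with pools that overlapped (0.29 ± 0.14). In the other direction, secretogranin II (Scg2), a precursor stored in dense-core vesicles, was at 2421 and 2522 and then at 1967 and 2130, with a difference of -0.27 ± 0.13 (SE). The dim Vip was at 78.6 and 68.4 and then at 47.9 and 37.5, with a difference of -0.79 ± 0.45 (SE).

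Genes that activity and light are known to induce in the SCN had no common direction. Of 17 transcription factors of that kind, 8 were higher and 9 lower, and of 17 effectors, 7 were higher and 10 lower. Egr1, an immediate early factor, was at 5100 and 4261 and then at 6261 and 4822, higher in each cycle (0.24 ± 0.15) with pools that overlapped, and its dimmer probe sets differed by -0.38, -0.13 and 0.59. The orphan receptor gene Nr4a2 differed by 0.56 ± 0.31 and its relative Nr4a3 by -0.52 ± 0.33. A second probe set of Nr4a2 differed by 0.05 ± 0.37, and the others of Nr4a3 by -0.16 ± 0.32 and -0.77 ± 0.42. Fos was at 347 and 406 and then at 472 and 397. Plat, the tissue plasminogen activator, was at 428 and 420 and then at 334 and 319 (-0.38 ± 0.19), and the synaptic gene Arc was at 329 and 325 and then at 424 and 375 (0.29 ± 0.18).

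More genes of translation and respiration were higher than lower, and more chaperones were lower, beside 2491 higher and 2193 lower of all 4713 genes. Of 37 matched genes of cytosolic ribosomal proteins, 33 were higher and 4 lower, and 16 were higher and 1 lower on both days. The shares over all genes were 27.3% and 22.5%. The CT 6 pools both exceeded the CT 0 pools for 12, beside 18.8% of all genes, and 1 of 37, Rpl35a, was higher at an unadjusted p under 0.05, near the 2.36% of all genes. The median of the list was 0.14, beside 0.02 for all genes. It was 0.04 on the first day and 0.31 on the second. Leaving out the 30 h pool took it to -0.01, and leaving out the 6 h pool took it to 0.35, so the second cycle carried it. Rps16 was at 7897 and 8506 and then at 10035 and 11014 (0.36 ± 0.23), and Rpl3 was at 19340 and 20204 and then at 21023 and 29721 (0.34 ± 0.24).

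Of 32 matched genes of the respiratory chain and ATP synthase, 27 were higher and 5 lower, 19 were higher and 3 lower on both days, and 12 had both CT 6 pools above the CT 0 pools. The shares over all genes were 27.3%, 22.5% and 18.8%, and 0 had an unadjusted p under 0.05. Their median was 0.11, with 0.13 on the first day and 0.10 on the second. The brightest probe set of Atp5po was at 7181 and 8659 and then at 9988 and 11853 (0.46 ± 0.21). Cox6a1, a subunit of cytochrome oxidase, was at 5445 and 5905 and then at 6873 and 8724 (0.45 ± 0.20). Another bright probe set of Cox6a1 differed by 0.18 ± 0.17, and a dim one by 0.42 ± 0.45. Sdha, of complex II, and Cox7b, of cytochrome oxidase, were lower in both cycles, with -0.22 ± 0.16 and -0.14 ± 0.17. Of the ribosomal list, 36 genes lay above the median level, and of the respiratory list 30. In the brightest of 10 classes of level, 57.7% of 868 probe sets were higher at CT 6 with a median of 0.04, and in the dim class 3, 58.4% were, with a median of 0.11. The part of the signal level in the list counts was not tested.

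Of 26 matched heat shock proteins and chaperones, 5 were higher and 21 lower. On both days 15 were lower and 2 higher, beside 22.5% and 27.3% of all genes, and 12 had both CT 6 pools under the CT 0 pools, beside 15.8%. At an unadjusted p under 0.05, 1 of 26, Pdia3, was lower, beside 1.65% of all genes. The median was -0.19, with -0.21 on the first day and -0.19 on the second. By run it was -0.06 in the first and -0.27 in the repeat. Pdia3, a disulfide isomerase of the endoplasmic reticulum, was at 889 and 780 and then at 532 and 570, with a difference of -0.60 ± 0.21 (SE). Every CT 6 array of Pdia3 was below every CT 0 array, and its second probe set differed by -0.41 ± 0.27. The mitochondrial HSP70 gene Hspa9 was at 1777 and 1723 and then at 1127 and 1281 (-0.54 ± 0.28), which came from the first run (-1.22) and not the repeat (0.14). The HSP40 gene Dnajb1 was at 1161 and 1024 and then at 849 and 791 (-0.41 ± 0.18), and its second probe set differed by -0.05 ± 0.21. Hsp90ab1, a cytosolic HSP90, was at 14307 and 14650 and then at 12538 and 12246 (-0.22 ± 0.18). In the other direction, Hspe1 differed by 0.14 ± 0.20 and Hsp90b1 by 0.13 ± 0.16.

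Genes of signalling and excitability had small medians. Of 49 genes of cAMP, calcium and MAP kinase signalling, 35 were higher and 14 lower, 21 were higher and 6 lower on both days, and the median was 0.11. The CT 6 pools both exceeded the CT 0 pools for 18 of them and lay under them for 4, beside 18.8% and 15.8% of all genes. Adcy4, an adenylyl cyclase, was dim, at 18.0 and 33.6 and then at 36.6 and 89.4, while the bright Gnas, the stimulatory G protein, was at 22289 and 21718 and then at 30203 and 25599 (0.34 ± 0.21). The catalytic subunit of calcineurin, Ppp3ca, was lower in both cycles (-0.28 ± 0.13). Of 20 sodium, calcium and HCN channel genes, 7 were higher and 13 lower, with a median of -0.09. Among these, Scn2a, a sodium channel of axons, was at 2392 and 2008 and then at 1805 and 1109 (-0.63 ± 0.30). The calcium release channel Itpr1 differed by -0.47 ± 0.22. A dim probe set of Itpr1 differed by 0.11 ± 0.38, and its others lay at the floor in these pools. Of 34 potassium channel genes, 15 were higher and 19 lower. For GABA signalling, which most SCN neurons use, 7 of 21 genes were higher and 14 lower.

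Of 40 genes of synaptic vesicle release, 25 were higher and 15 lower, with a median of 0.10. Of these, 1 was higher at an unadjusted p under 0.05, beside 2.36% of all genes. It was the dim synaptotagmin gene Syt11, at 24.5 and 38.1 and then at 96.7 and 61.2 (1.33 ± 0.47). Of 27 proteasome and ubiquitin genes, 17 were higher and 10 lower, with a median of 0.08. Psma7, a proteasome subunit, was at 9392 and 12381 and then at 12721 and 16397 (0.42 ± 0.23). A second bright probe set of Psma7 differed by 0.14 ± 0.20. Glycolysis (22 genes, 11 higher and 11 lower) and lipid synthesis (17 genes, 8 higher and 9 lower) were about even. The 11 ion pump genes had 6 higher and 5 lower, and the 24 receptor genes 16 higher and 7 lower. Of the pumps, 1 was higher at an unadjusted p under 0.05, beside the same 2.36% of all genes. It was the sodium-calcium exchanger gene Slc8a2, at 58.2 and 126 and then at 168 and 206 (1.12 ± 0.40). Its difference was 2.48 in the first run and -0.24 in the repeat. The receptors had 1 higher and 1 lower at that p, both dim, beside 2.36% and 1.65% of all genes. Gria3, an AMPA receptor subunit, was at 15.7 and 18.0 and then at 34.1 and 62.9 (1.46 ± 0.42), and the vasopressin receptor gene Avpr1a was at 65.3 and 38.8 and then at 27.6 and 17.8 (-1.19 ± 0.44). Ntrk2, the BDNF receptor, was at 1036 and 663 and then at 583 and 634 (-0.45 ± 0.20), while its dim second probe set differed by 0.17 ± 0.40. Of 12 cold-inducible and splicing genes, 4 were higher and 8 lower. Srsf2, a splicing factor, was at 5804 and 5258 and then at 4339 and 4591 (-0.31 ± 0.16). A second bright probe set of Srsf2 differed by 0.09 ± 0.35, and a dim one by 0.12 ± 0.46.

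**Figure D5:**
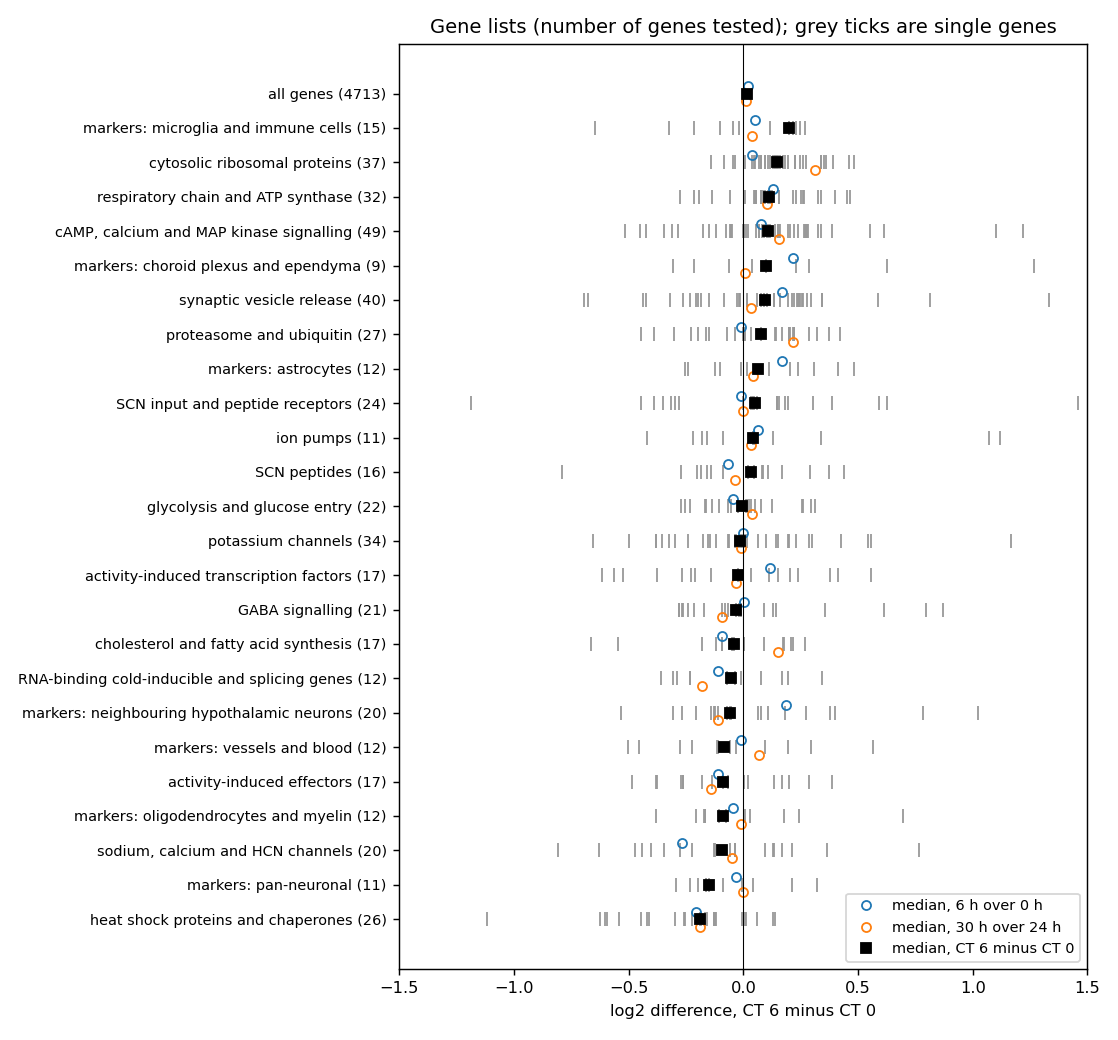
Log2 difference of CT 6 minus CT 0 (horizontal axis) for gene lists, 1 probe set a gene, with the number of genes tested in brackets. Grey ticks are single genes, black squares the median, blue circles the median of the first cycle and orange circles that of the second. The respiratory chain (0.13 and 0.10) and the chaperones (-0.21 and -0.19) have similar medians in both cycles, and the ribosomal proteins (0.04 and 0.31) do not.

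Markers of the cells that the dissected tissue could hold were measured as whole lists, by summed intensity over the pools. Of 12 astrocyte markers, 7 were higher and 5 lower, with sums of 93938 and 94715 at CT 0 and 106003 and 111138 at CT 6. Apoe, the main lipid carrier of astrocytes, was at 17900 and 18993 and then at 23906 and 27737 (0.48 ± 0.26), and its second probe set differed by 0.18 ± 0.24, with -0.31 on the first day and 0.66 on the second. Of 12 markers of oligodendrocytes and myelin, 5 were higher and 7 lower, with sums of 43342 and 43118 at CT 0 and 39055 and 43508 at CT 6. Of 11 neuronal markers, 3 were higher and 8 lower, with sums of 30698 and 29914 at CT 0 and 28856 and 29439 at CT 6. Of 15 markers of microglia and immune cells, 9 were higher and 6 lower, with a median of 0.20 (by day 0.05 and 0.04) and sums of 5343 and 5658 at CT 0 and 5199 and 5605 at CT 6. Of 12 markers of vessels and blood, 4 were higher and 8 lower, with sums of 14526 and 10776 at CT 0 and 11881 and 12445 at CT 6.

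Of 9 markers of choroid plexus and ependyma, 6 were higher and 3 lower, with sums of 6880 and 9358 at CT 0 and 7993 and 8440 at CT 6. Transthyretin (Ttr), the main secreted protein of the choroid plexus, was at 172 and 94.6 at CT 0 and at 308 and 305 at CT 6. Both CT 6 pools of Ttr were higher, by 1.27 ± 0.45 (SE), and its second probe set differed by 0.55 ± 0.46. Of 20 markers of neighbouring hypothalamic neurons, 9 were higher and 11 lower, with sums of 9943 and 10577 at CT 0 and 11024 and 8818 at CT 6. Pomc, the melanocortin precursor of arcuate neurons, was at 186 and 163 and then at 467 and 192, above the other 3 pools at 6 h alone, and Pmch, a peptide gene of the lateral hypothalamus, was at 364 and 373 and then at 328 and 197. Of all these markers, 3 of microglia and immune cells lay below 2 times the floor, 1 each of neurons, astrocytes, vessels and neighbouring neurons did, and 0 of the other lists. The part of such cells in the differences above was not tested.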

How the data were processed

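RNA pools of rat SCN were measured on U34A arrays. The intensity of each probe set was used as deposited, on a linear scale. How the authors summarised probes and scaled arrays is not given in the sources used here. Precision is limited by the number of pools and arrays. Intensities below 12.1, the 10th percentile over all arrays, were raised to that floor. After log2, arrays a and b were averaged, then the runs. Controls (59 probe sets) and 67 probe sets at the floor in every pool were not tested.

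All 8 pools entered 1 limma fit (lmFit, eBayes with trend; limma 3.58.1, R 4.3.3) with phase groups and the day as a block, 3 residual and 4.99 prior degrees of freedom, and adjustment over 8673 probe sets. The fit was tested on simulated data. Pools of a phase came from different rats, and p-values measure the spread between these pools. Symbols came from the platform annotation (7006 probe sets with 1 symbol, 308 with several, 1426 with none), and 6985 of those 7006 had a gene number in the current RefSeq table. A list takes the brightest probe set of each gene. The text names the 24 genes of the rule given there, all matched clock genes and, for the other lists, genes from the 3 of smallest p in each. Sst, Vip, Scg2, Oxt, Fos, Rps16, Rpl3, Sdha, Cox7b, Hspa9, Hsp90ab1, Hspe1, Hsp90b1 and Gnas were named after their values were seen. The members and the lists were chosen with earlier results of these data known. Alternatives covered scaling, floor, filters, the fit, the runs and leaving out each pool.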

Additional observations from a re-analysis of the deposited data

Results flagged for a closer look

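Arrays are technical readings of 4 pools, so these flags concern arrays and not animals. Among 70 groups of arrays (35 leading and clock genes, 5 arrays at CT 0 or 4 at CT 6), 4 had 1 array far from the others by Dixon's criterion, where chance gives about 1 in 20 groups. Nr1d1 read 45.2 on the first-run array of 30 h and 283 to 291 on the other CT 6 arrays. Hmox2 read 129 on that same array and 218 to 227 on the others. Serpina1 read 110 on the repeat array of 6 h and 199 to 211 on the others. Timeless read 27.2 on the first-run array of 0 h and 4.70 to 14.8 on the others, close to the floor of 12.1. The criterion was applied to log2 values after low intensities were raised to the floor. The flag for Timeless depends on that floor.

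Among 106 named probe sets, 2 had a difference of one sign in both runs of the first day and of the opposite sign in both runs of the second; the difference between days was not tested. Tef gave 0.37 on the first day and -0.19 on the second, a change of -0.56 on the log2 scale. Syn1, a synaptic vesicle protein gene, gave 0.01 and -0.48, a change of -0.49.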

How the results depend on the processing

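For CT 6 against CT 0, 0 probe sets had an adjusted p under 0.05 in limma under each of the 20 alternatives. The smallest adjusted p was 0.128 (Rasl11b, with a cosine and a sine in place of phase groups). That fit draws on the pools of all phases, and its contrast is the difference between the steps on another scale. It is thus not a test of CT 6 against CT 0 alone. Among the other alternatives the smallest adjusted p in limma was 0.559, on single arrays. The counts at an unadjusted p under 0.05 did vary. Those higher, 203, became 80 with only probe sets above the median level and 31 with only those above the 75th percentile, where fewer were tested, and ran from 94 to 330 on leaving out a pool. Those lower, 147, became 89 and 51 under these filters, 234 with only the pools of CT 0 and CT 6, 222 with the cosine and sine and 236 with the repeat alone, and ran from 60 to 284 on leaving out a pool; the cause was not tested. Between the steps, 0 adjusted calls became 1 with a pseudocount in place of the floor, with each level filter and with no replicate block, and 2 on single arrays. That last fit estimated a correlation of -0.11 between arrays of a pool. It thus counts technical arrays as if they were separate pools, and its calls are not evidence across animals. Without the day as a replicate block, 221 were higher and 167 lower. The share with 1 sign on both days, 50.6%, was 49.5% with the floor at the 25th percentile, 52.1% and 53.6% with the filters, 47.6% in the first run, 52.1% in the repeat, and 48.0% and 53.3% without arrays a or b. The 24 leading genes were named for 1 direction in both cycles and both runs. That none turned in a run alone was thus fixed in advance and is no support. Under the other alternatives, 2 of them turned sign, both with the cosine and sine: Cavin3 to -0.0815 and Atp5po to -0.237. Their difference between the steps was negative in the main fit too, at -0.163 and -0.475. These turns thus reflect the other contrast and not a changed difference of CT 6 from CT 0. Over all 106 named probe sets, 49 of 2040 values, 13 of them with the cosine and sine, had the opposite sign, in 29 of the probe sets. List medians had it in 41 of 224 values, in 20 of 28 lists. Those of the respiratory chain (0.07 to 0.15) and of the chaperones (-0.27 to -0.06) kept theirs. So did those of cAMP, calcium and MAP kinase signalling (0.07 to 0.18), synaptic vesicle release (0.002 to 0.14) and astrocyte markers (0.04 to 0.14). The medians of the sodium, calcium and HCN channels, the clock nuclear receptors and the activity-induced effectors also kept their sign. Quantile normalization or scaling to the median turned 2 values of named probe sets and 1 list median. Dim probe sets have the larger errors.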
